A study of Homo sapiens with 6 samples.

Results

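The genes described here are 9 that detect double-stranded RNA or pass the signal on: DDX58, IFIH1, DHX58, TLR3, MAVS, TBK1, IKBKE, EIF2AK2 and ADAR. They were taken by symbol from a table of 60612 genes, each symbol standing for its row with the highest mean FPKM. Messenger RNA came from cells that the labels name Hep3B, which is a line derived from a human liver cancer. There were 6 libraries: 3 of cells given 50 nM siRNA targeting EIF4G2 (siEIF4G2), 3 of cells given the control siRNA at the same 50 nM (siNC). EIF4G2, which resembles EIF4G1 and acts in translation initiation, read 178, 180 and 199.8 CPM under siEIF4G2 and 1103, 913 and 998 CPM under siNC, a log2 fold change of -2.43 (edgeR adjusted p = 0.00019). Triplets of values are always in the order of replicates 1, 2 and 3. CPM is a gene's count over the library total, adjusted with edgeR's TMM factors and brought to the usual CPM scale. Both groups thus received siRNA, and cells without any were not analysed here.

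Double-stranded RNA in the cytosol is a sign of viral infection. RIG-I (DDX58) and MDA5 (IFIH1) are helicases that bind it and then meet MAVS, an adaptor on the mitochondrial outer membrane, while TLR3 senses it in endosomes. Both routes end at the kinases TBK1 and IKBKE, which phosphorylate the transcription factors that switch on interferon genes. EIF2AK2, also called PKR, is activated by the same ligand and phosphorylates eIF2alpha, which lowers translation. ADAR edits adenosine to inosine in such duplexes and so marks RNA as self. DDX58, IFIH1, DHX58 and EIF2AK2 are themselves known interferon-stimulated genes, as is the long form of ADAR.

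The hepatocyte markers went against the cell label, so the cells are called here only by their label. The labels give Hep3B and liver, while the extraction protocol speaks of an adipose type. Of 10 hepatocyte markers, 7 (AFP, ALB, GPC3, TTR, APOA1, FGB and APOB) had 0 counts in all 6 libraries and none had a mean of 1 CPM or more. Libraries held 63351653 to 72863628 counts, and counting error alone leaves room under a 0 for 3 counts, or 0.0403 to 0.0466 CPM. Summed levels of 5 fibroblast markers were 274 to 309 CPM in siEIF4G2 and 249 to 282 CPM in siNC. Within that sum the markers moved in both directions. By edgeR, PDGFRB (log2 fold change -1.19) and COL1A1 (-0.43) were lower in siEIF4G2, and DCN (0.73) and LUM (0.38) were higher. COL1A2, not tested, had means of 0.575 CPM in siEIF4G2 and 1.11 CPM in siNC. Summed levels of 4 endothelial markers were 3.33 to 4.12 CPM in siEIF4G2 and 10.1 to 10.9 CPM in siNC. They were mostly CDH5, with KDR at 0 in siEIF4G2 and at most 0.114 CPM in siNC. Those of 6 leukocyte markers were 19.6 to 25.1 CPM in siEIF4G2 and 31.5 to 36.9 CPM in siNC, almost wholly CD68, with PTPRC and CD3E at 0. Those of 5 adipocyte markers were 0 in siEIF4G2 and 0.184 to 0.209 CPM in siNC, with ADIPOQ, LEP and CIDEC at 0. The part of any other cell type in the results below was not tested. In bulk RNA, fewer cells of a type and less RNA per cell cannot be told apart.

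RefSeq promoter windows of GRCh38.p14 ran from 250 bases before to 50 bases after a gene's start. Windows were found for 8 of the 9 genes, all but DHX58. They were searched on both strands for GAAA, any 2 bases, GAAA, the core of the interferon-stimulated response element, which is bound by IRF and STAT complexes. That core was in 3.57% of 35116 windows of the same length and in 3 of the 8 genes here. The windows of IFIH1 (chr2:162318635-162318934, minus strand), EIF2AK2 (chr2:37156931-37157230, minus strand) and TLR3 (chr4:186068906-186069205, plus strand) are shown because they hold it, with the matches in capitals. Those of DDX58 (chr9:32526147-32526446, minus strand), TBK1 (chr12:64451870-64452169, plus strand) and IKBKE (chr1:206470226-206470525, plus strand) are shown for comparison and hold no match. Each runs 5′ to 3′ on its gene's strand.
IFIH1: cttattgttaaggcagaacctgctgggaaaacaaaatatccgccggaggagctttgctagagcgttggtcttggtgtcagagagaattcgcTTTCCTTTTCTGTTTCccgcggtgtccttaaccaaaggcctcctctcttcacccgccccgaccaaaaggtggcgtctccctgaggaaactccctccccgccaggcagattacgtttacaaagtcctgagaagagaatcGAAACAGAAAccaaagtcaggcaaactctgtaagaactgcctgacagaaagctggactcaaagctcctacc
EIF2AK2: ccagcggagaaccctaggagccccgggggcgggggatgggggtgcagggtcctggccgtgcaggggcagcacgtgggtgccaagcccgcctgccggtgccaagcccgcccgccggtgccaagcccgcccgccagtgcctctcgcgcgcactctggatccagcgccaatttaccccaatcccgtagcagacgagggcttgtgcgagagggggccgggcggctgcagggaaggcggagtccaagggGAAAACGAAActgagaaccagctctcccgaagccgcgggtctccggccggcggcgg
TLR3: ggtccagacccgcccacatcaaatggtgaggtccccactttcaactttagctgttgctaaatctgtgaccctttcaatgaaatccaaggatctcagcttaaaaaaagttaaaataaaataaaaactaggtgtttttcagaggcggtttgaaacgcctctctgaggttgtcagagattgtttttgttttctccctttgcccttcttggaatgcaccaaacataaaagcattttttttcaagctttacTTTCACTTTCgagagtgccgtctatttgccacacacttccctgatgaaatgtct
DDX58: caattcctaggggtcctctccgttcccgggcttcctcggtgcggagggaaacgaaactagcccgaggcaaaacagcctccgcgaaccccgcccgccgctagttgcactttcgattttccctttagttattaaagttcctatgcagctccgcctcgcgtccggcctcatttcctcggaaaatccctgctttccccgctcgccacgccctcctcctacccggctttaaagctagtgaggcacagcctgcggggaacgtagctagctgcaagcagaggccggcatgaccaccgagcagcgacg
TBK1: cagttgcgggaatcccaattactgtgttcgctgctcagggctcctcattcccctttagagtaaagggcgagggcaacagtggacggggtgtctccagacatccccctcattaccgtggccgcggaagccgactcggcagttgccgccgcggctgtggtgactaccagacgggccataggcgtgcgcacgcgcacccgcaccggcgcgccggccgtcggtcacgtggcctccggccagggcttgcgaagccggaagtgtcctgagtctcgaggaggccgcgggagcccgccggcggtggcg
IKBKE: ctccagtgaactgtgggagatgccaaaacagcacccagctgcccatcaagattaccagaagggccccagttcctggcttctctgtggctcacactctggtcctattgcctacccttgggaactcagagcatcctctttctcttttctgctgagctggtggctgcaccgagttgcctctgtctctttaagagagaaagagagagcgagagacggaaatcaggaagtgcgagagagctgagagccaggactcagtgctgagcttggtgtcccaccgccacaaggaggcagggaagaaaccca
With the start base counted as 0, IFIH1 held GAAACAGAAA on its own strand from -21 to -12. On its other strand it held a second copy of GAAACAGAAA from -153 to -144, which overlaps GAAAAGGAAA from -159 to -150. EIF2AK2 held GAAAACGAAA from -6 to 3 on its own strand, and TLR3 held GAAAGTGAAA from -4 to 5 on the other strand. A match is a description of these letters, not a bound site, and windows without one say nothing of sites elsewhere. GGGCGG, a GC box bound by SP1, was in 45.0% of all windows. Counting matches on both strands, it stood 4 times in EIF2AK2, 3 times in MAVS, once each in DDX58, IFIH1 and TLR3, once in 1 of the 3 windows of ADAR, and not in TBK1 or IKBKE.

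Of the 9 genes, 8 passed the filter of at least 0.5 FPKM in at least 3 libraries and were tested, and TLR3 did not pass it. DDX58, IFIH1, DHX58, EIF2AK2 and IKBKE fell in siEIF4G2, so 5 of the 8 tested were lower. Over all 13748 tested genes 17.5% were lower and 15.8% were higher, 33.2% in all, at the same edgeR adjusted p of 0.05. None of the 8 was called higher, by edgeR or by DESeq2, and none had an unadjusted p under 0.05 in that direction. MAVS, TBK1 and ADAR did not pass. The median log2 fold change was -0.57 over the 8 genes and 0.01 over all tested genes. The 3 siEIF4G2 values lay wholly below the 3 siNC values in the same 5 genes, and 25.6% of all tested genes had that pattern. The untested TLR3 had it too. None of the 8 lay wholly above, against 25.0% of all tested genes. Nothing in the labels says that replicates were grown separately; the p-values then speak only for the spread of these libraries, which may be technical.

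**Figure D1:**
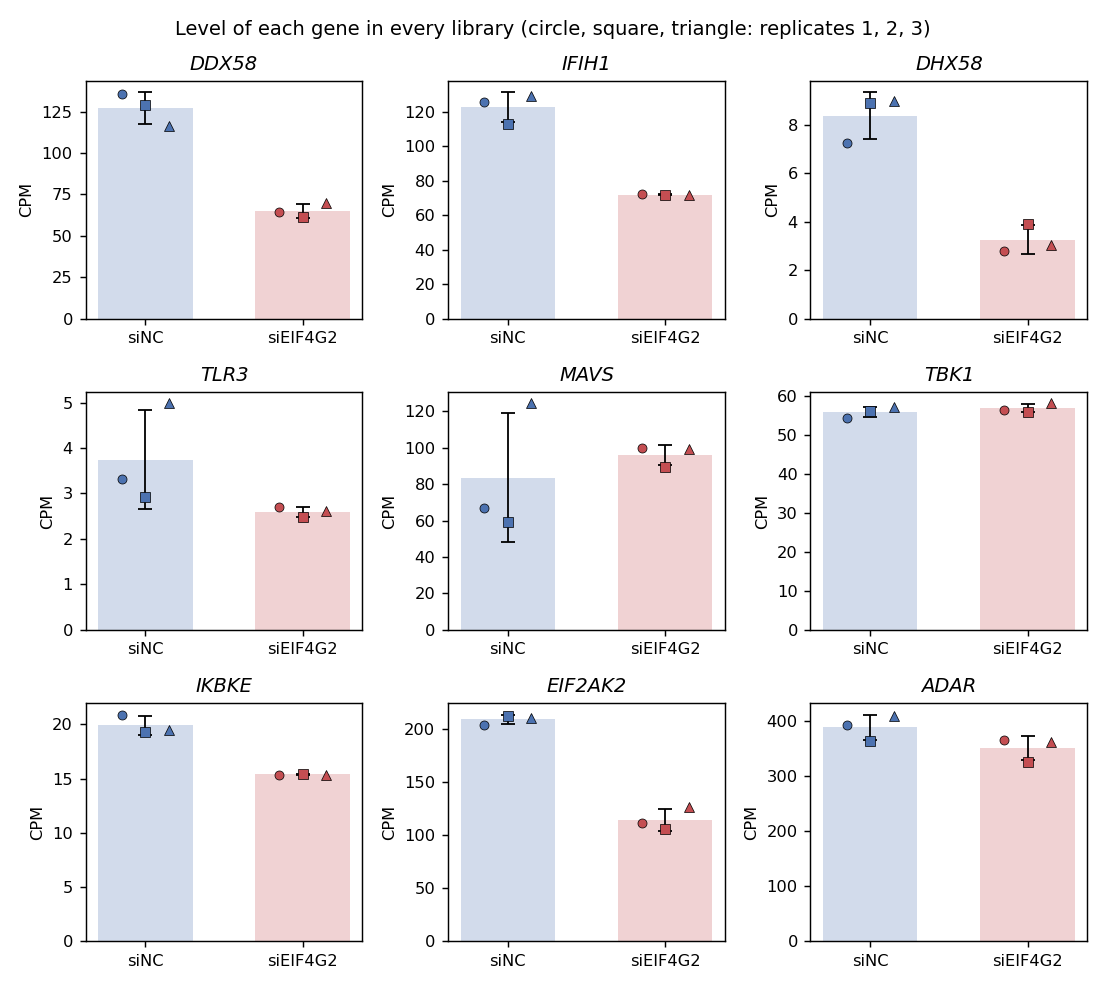
Level in CPM (vertical axis, from 0) of each of the 9 genes in siNC (blue) and siEIF4G2 (red). Bars are means with SD of 3 libraries, and symbols are single libraries. The red symbols lie below the blue ones for DDX58, IFIH1, DHX58, TLR3, IKBKE and EIF2AK2, while siNC replicate 3 of MAVS stands at 124 CPM, above its siEIF4G2 libraries.

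**Figure D2:**
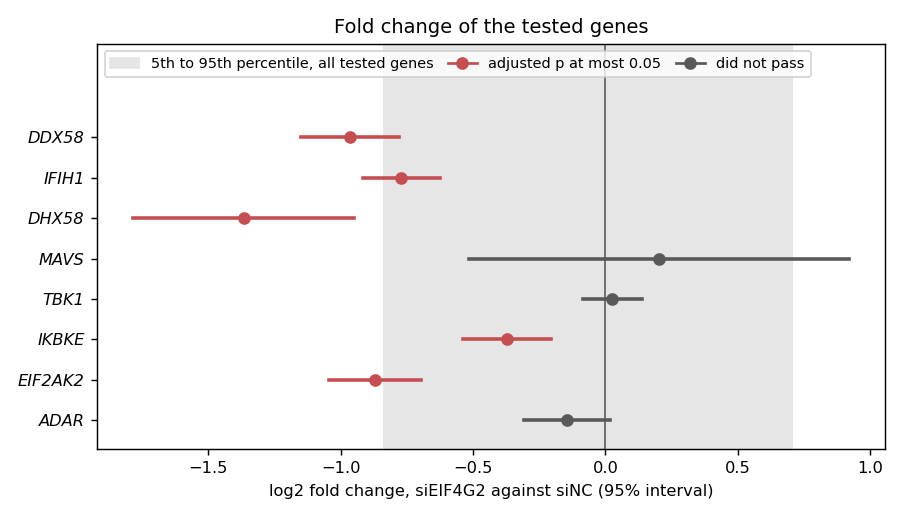
Log2 fold change of siEIF4G2 against siNC (horizontal axis) for the 8 tested genes, with 95% intervals from edgeR. The grey band spans the 5th to 95th percentile of all tested genes, -0.84 to 0.71. DDX58, DHX58 and EIF2AK2 lie below the band, and the interval of MAVS is the widest of the 8.

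The 3 RIG-I-like receptors all fell. Gene positions are those deposited, and their build, taken as GRCh38, was inferred from overlap with GENCODE 29 intervals. DDX58 (ENSG00000107201, chromosome 9 from 32455302 to 32526208, minus strand) recognises RNA with a 5′ triphosphate. It read 64.2, 61.4 and 69.6 CPM under siEIF4G2 and 135.5, 129 and 117 CPM under siNC. Each siEIF4G2 library was far below each siNC library, and siNC replicate 3 was the lowest of its group. The means under siEIF4G2 and siNC were 65.1 ± 4.15 and 127 ± 9.61 CPM (SD, n = 3), and the log2 fold change was -0.97 (SE 0.08; edgeR adjusted p = 0.00058).

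IFIH1 (ENSG00000115267, chromosome 2 from 162267074 to 162318684, minus strand) encodes MDA5, which prefers long duplexes. It read 72.1, 71.8 and 71.6 CPM under siEIF4G2 and 126, 113 and 129 CPM under siNC. The siEIF4G2 libraries were nearly equal, and the groups did not overlap. The means were 71.8 ± 0.25 and 123 ± 8.55 CPM (SD, n = 3), and edgeR's log2 fold change was -0.77 (SE 0.06; adjusted p = 0.000567). Its window above holds the response element core 3 times, counting overlapping matches, while that of DDX58, which also fell, holds none with this spacing. The DDX58 window does hold gaaacgaaa, whose gap is shorter than the search allowed.

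DHX58 (ENSG00000108771, chromosome 17 from 42101404 to 42112714, minus strand) encodes LGP2, a helicase without the signalling CARD domains of the other receptors that modulates both. It read 2.78, 3.92 and 3.05 CPM under siEIF4G2 and 7.27, 8.90 and 8.97 CPM under siNC. These levels rest on 196 to 258 counts per siEIF4G2 library and 498 to 632 per siNC library. Its groups did not overlap, and its log2 fold change, -1.37 with an SE of 0.17, was the lowest of the 8 (edgeR adjusted p = 0.0025). On the log2(FPKM + 1) scale, which understates changes of low genes, limma gave -0.72 (adjusted p = 0.00259).

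TLR3 (ENSG00000164342, chromosome 4 from 186069155 to 186088073, plus strand), the endosomal receptor, was the least abundant of the 9 per length. It read 2.70, 2.48 and 2.61 CPM under siEIF4G2 and 3.33, 2.93 and 4.98 CPM under siNC. All siEIF4G2 values were below all siNC values, but the gap between 2.70 and 2.93 CPM was small and siNC replicate 3 stood above the rest of its group. With no filter on low values, edgeR gave -0.52 on the log2 scale (SE 0.22) with an unadjusted p = 0.0441 and an adjusted p = 0.174, so TLR3 did not pass.

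MAVS (ENSG00000088888, chromosome 20 from 3846799 to 3876123, plus strand), the adaptor of both signalling RIG-I-like receptors, differed within siNC more than between groups. It read 66.9, 59.4 and 124 CPM under siNC, and 99.8, 89.7 and 99.1 CPM under siEIF4G2. In siNC replicate 3 it was 1.86-fold the level of replicate 1 and 2.09-fold that of replicate 2, so the siEIF4G2 libraries lay between the siNC libraries. The log2 fold change was 0.20 (SE 0.29; edgeR adjusted p = 0.636) with a 95% interval from -0.52 to 0.92. Without siNC replicate 3 it was 0.61 and passed (edgeR adjusted p = 0.00853), which makes MAVS the gene here whose call rests on 1 library. TLR3, on another chromosome, was also highest in that library, at 1.497-fold and 1.70-fold siNC replicates 1 and 2. Over all genes siNC replicate 3 was like the others in this respect. Of 12882 tested genes with a siNC mean of at least 1 CPM, 162 were at least 1.5-fold above both other siNC libraries in replicate 3, against 162 in replicate 1 and 190 in replicate 2.

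The gene nearest to MAVS in pattern was found by a likeness that uses these same 6 libraries, so a like split of siNC follows from the choice. Likeness was the root mean square difference between log2 CPM profiles over the 6 libraries, each centred on its own mean. RASSF7, a Ras association domain gene, was nearest at 0.114 and read 9.82, 10.3 and 21.0 CPM under siNC. It did not pass (edgeR adjusted p = 0.499). What sets siNC replicate 3 apart for MAVS was not tested.

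**Figure D3:**
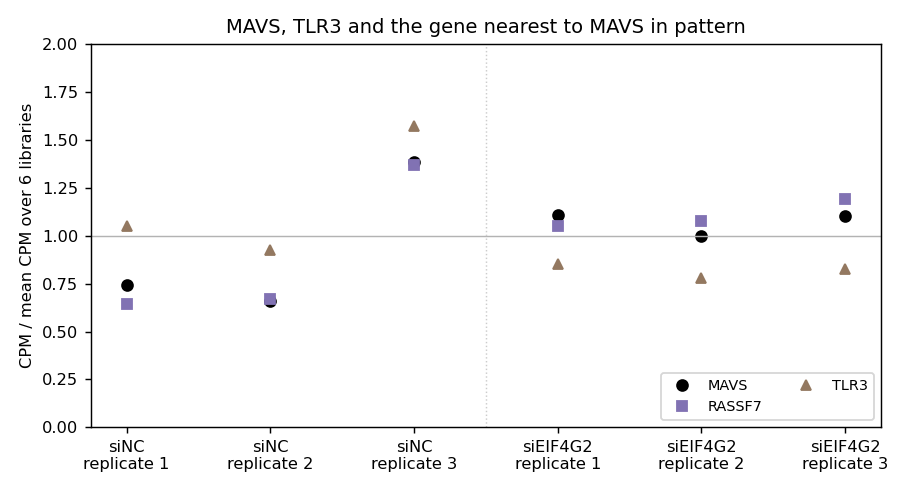
CPM relative to the gene's mean over 6 libraries (vertical axis) for MAVS, RASSF7 and TLR3 in each library (horizontal axis). All 3 are highest in siNC replicate 3; RASSF7 was chosen for its likeness to MAVS over these libraries. MAVS and RASSF7 are lowest in siNC replicates 1 and 2, and TLR3 is lowest in the siEIF4G2 libraries.

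The related kinases that end the pathway differed in their calls. TBK1 (ENSG00000183735, chromosome 12 from 64452092 to 64502086, plus strand), present in most cell types, read 56.5, 56.0 and 58.1 CPM under siEIF4G2 and 54.5, 56.1 and 57.2 CPM under siNC. The groups overlapped, and the log2 fold change was 0.03 (SE 0.05; edgeR adjusted p = 0.715) with a 95% interval from -0.09 to 0.14. IKBKE (ENSG00000263528, chromosome 1 from 206470476 to 206496889, plus strand), the inducible relative, read 15.4, 15.4 and 15.4 CPM in siEIF4G2 and 20.9, 19.3 and 19.5 CPM in siNC. Its groups did not overlap, and its log2 fold change, -0.37 with an SE of 0.07, was the smallest in size of the 5 falls (edgeR adjusted p = 0.00887).

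EIF2AK2 and ADAR act on double-stranded RNA outside the MAVS route. EIF2AK2 (ENSG00000055332, chromosome 2 from 37099210 to 37157065, minus strand) read 111, 106 and 126 CPM under siEIF4G2 and 204, 213 and 211 CPM under siNC. The groups were well apart, and the log2 fold change was -0.87 (SE 0.07; edgeR adjusted p = 0.000651). ADAR (ENSG00000160710, chromosome 1 from 154582057 to 154628013, minus strand), the most abundant of the 9 per length, read 365, 325 and 362 CPM in siEIF4G2 and 393, 363 and 408 CPM in siNC. Its groups overlapped at siEIF4G2 replicate 1 and siNC replicate 2. Its log2 fold change was -0.15 (SE 0.07; edgeR adjusted p = 0.144) with a 95% interval from -0.31 to 0.02. Counts were per gene, so the long, interferon-inducible form of ADAR cannot be told apart from the short constitutive one.

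No other row of the table overlapped the intervals of 6 of the 9 genes, and the use of strand in counting is not given in the sources used here. EIF2AK2 shares 35 exon bases in GENCODE 29 with GPATCH11 on the other strand, which moved the other way (log2 fold change 0.29; edgeR adjusted p = 0.016). It also shares 401 with the pseudogene ARL14EPP1, at 0 in all libraries. TBK1 shares 702 exon bases with the noncoding AC135279 (ENSG00000277895), which read at most 0.299 CPM. IKBKE shares 156 with C1orf147, at most 0.255 CPM, and holds MIR6769B in an intron, at most 0.0142 CPM.

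Levels of different genes were compared per length. In siNC the mean FPKM (fragments scaled to gene length and library depth) was 33.4 for ADAR, 22.7 for DDX58, 19.9 for IFIH1, 16.2 for EIF2AK2, 7.26 for TBK1, 5.89 for MAVS, 4.35 for IKBKE, 1.81 for DHX58 and 0.461 for TLR3. Neighbours whose siNC ranges overlapped were DDX58 and IFIH1, TBK1 and MAVS, and MAVS and IKBKE. In siEIF4G2 it was 30.8 for ADAR, 11.9 for IFIH1, 11.8 for DDX58, 9.01 for EIF2AK2, 7.52 for TBK1, 6.91 for MAVS, 3.42 for IKBKE, 0.708 for DHX58 and 0.325 for TLR3. There only IFIH1 and DDX58 overlapped.

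Whether members changed by different amounts was examined with 5 ratios formed within each library. An exact two-sided permutation test of 3 libraries against 3 cannot go below p = 0.1, and no ratio can pass 0.05 in this design. The log2 ratio of IKBKE to TBK1 was -1.88, -1.86 and -1.92 in siEIF4G2 replicates 1, 2 and 3 against -1.38, -1.54 and -1.55 in siNC replicates 1, 2 and 3. The groups did not overlap and differed by -0.40 (exact p = 0.1, Benjamini-Hochberg adjusted over the 5 ratios 0.125). EIF2AK2 to ADAR differed by -0.73, from a mean of -0.89 ± 0.10 in siNC to -1.61 ± 0.10 in siEIF4G2 (SD, n = 3; exact p = 0.1, adjusted 0.125). DHX58 to IFIH1 differed by -0.60 and IFIH1 to MAVS by -1.05, each without overlap (exact p = 0.1, adjusted 0.125). For IFIH1 to MAVS the siNC values were 0.91, 0.93 and 0.05 in replicates 1, 2 and 3, and without replicate 3 the difference was -1.34. DDX58 to IFIH1, the signalling receptors, differed by -0.20 with overlapping groups (exact p = 0.2, adjusted 0.2).

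**Figure D4:**
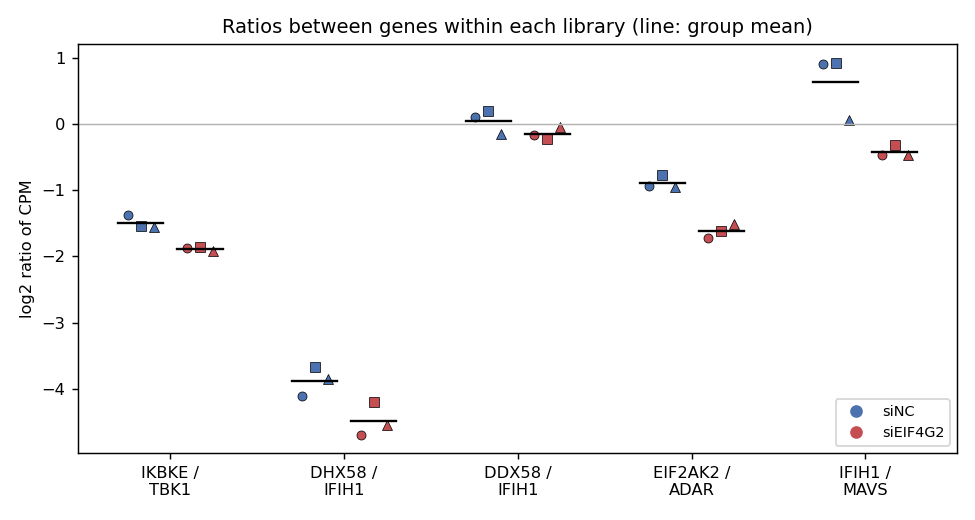
Log2 ratio of CPM between members (vertical axis) within each library, for the 5 ratios, in siNC (blue) and siEIF4G2 (red), with group means as lines and symbols for replicates as in the plot of levels. All red symbols lie below all blue ones except for DDX58 to IFIH1.

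Near neighbours in pattern were also found for the other 7 tested members, by the same root mean square difference in log2 CPM over 6 libraries. For DDX58 they were HTR1D, a serotonin receptor (0.0577), and STS, steroid sulfatase (0.0694), and for IFIH1 they were WARS1, tryptophanyl-tRNA synthetase (0.0341), and EDEM2 (0.0425). DHX58 lay nearest to GSTZ1 (0.103). EIF2AK2 lay nearest to TDRD7, a tudor domain gene (0.0342), and FNIP2 (0.038), and IKBKE to HACD1 (0.0102) and the noncoding SNHG32 (0.0143). The neighbours of ADAR were AHCYL1 (0.0225) and ADCY7 (0.0234), and those of TBK1 were C20orf194 (0.014) and NXPE3 (0.0152).

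Genes around the members were described from lists of the pathway, each by its count of tested genes, to be read against 17.5% lower and 15.8% higher over all genes. Of 12 adaptors and TBK1 partners, 6 fell, 2 rose and 4 did not pass, with a median log2 fold change of -0.17. AZI2, a scaffold of TBK1 and IKBKE, was 1.58-fold lower, NLRX1, a mitochondrial regulator of MAVS, 1.36-fold lower, and OPTN, an adaptor that binds TBK1, 1.29-fold lower (edgeR adjusted p = 0.00107, 0.00409 and 0.00449). The rises, named after their values were seen, were TOMM70, a mitochondrial receptor that binds MAVS, at 0.21 on the log2 scale (edgeR adjusted p = 0.00863), and TRAF3. TRAF3, a ligase between MAVS and TBK1, read 41.2, 41.0 and 40.4 CPM under siEIF4G2 and 26.3, 12.02 and 9.34 CPM under siNC (log2 fold change 1.37; edgeR adjusted p = 0.0456). That call was lost without siNC replicate 2 (1.20, adjusted p = 0.128) or 3 (1.10, 0.0845), without any one siEIF4G2 library (adjusted p = 0.097 to 0.103), and with no filter on low values (0.127).

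Of 11 tested regulators of the RIG-I-like receptors, 3 fell and 2 rose, with a median of -0.004. ZC3HAV1, an antiviral zinc finger protein, went from 244 ± 3.34 to 174 ± 3.09 CPM, and CYLD, a deubiquitinase, was 1.73-fold lower (edgeR adjusted p = 0.000477 and 0.00314). PPP1CC, a phosphatase subunit that dephosphorylates RIG-I and MDA5, went from 153 ± 9.94 to 248 ± 7.53 CPM, 1.62-fold higher (edgeR adjusted p = 0.00071). Of 9 transcription factors and IKK kinases, 3 fell and 6 did not pass, with a median of -0.27. IRF7, itself interferon-induced, was 1.91-fold lower, IRF1 1.34-fold lower and NFKBIA, the NF-kB inhibitor, 1.28-fold lower (edgeR adjusted p = 0.000545, 0.0105 and 0.00284).

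Of 9 tested proteins that bind double-stranded RNA outside these routes, 4 rose, 0 fell and 5 did not pass, with a median of 0.08. At an unadjusted p under 0.05 edgeR counted 1 fall, DICER1, and DESeq2 called 1 lower. DROSHA and DHX9, a ribonuclease and a helicase of nuclear RNA, were 1.31-fold and 1.301-fold higher, and ILF2 1.25-fold higher (edgeR adjusted p = 0.0042, 0.00148 and 0.0093). Of 8 genes around eIF2alpha, the substrate of EIF2AK2, 5 fell and 3 did not pass, with a median of -0.23. EIF2AK3, the kinase of the endoplasmic reticulum, was 1.33-fold lower, EIF2S1, eIF2alpha itself, 1.28-fold lower, and PPP1R15A, a phosphatase subunit that reverses its phosphorylation, 1.27-fold lower (edgeR adjusted p = 0.00615, 0.00263 and 0.00731).

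Of 8 tested genes of DNA sensing and other endosomal receptors, 4 fell and 2 rose, with a median of -0.42. MYD88, an adaptor of other Toll-like receptors, was 1.57-fold lower and STING1, the adaptor of cytosolic DNA sensing, 1.29-fold lower, while IRAK1, a kinase downstream of MYD88, was 1.51-fold higher (edgeR adjusted p = 0.00482, 0.0137 and 0.000572). TLR7 and TLR8 were at 0 in all 6 libraries. Of 11 interferon and interferon receptor genes, 5 were tested and 1 fell. That was IL10RB, a subunit of the receptor for type III interferons, at 11.7, 11.2 and 13.6 CPM in siEIF4G2 and 20.7, 23.6 and 14.3 CPM in siNC (log2 fold change -0.68; edgeR adjusted p = 0.0397). Its call was lost without each of siNC replicates 1 and 2 and each siEIF4G2 library (adjusted p = 0.0642 to 0.108). For IFNAR1 edgeR gave -0.18 on the log2 scale (adjusted p = 0.537), and for IFNLR1 -0.15 (0.583). IFNB1, the main product of the pathway, was at 0 in 3 of 6 libraries and at most 0.209 CPM, and IFNL2, IFNL3 and IFNK were at 0 in all 6.

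**Figure D5:**
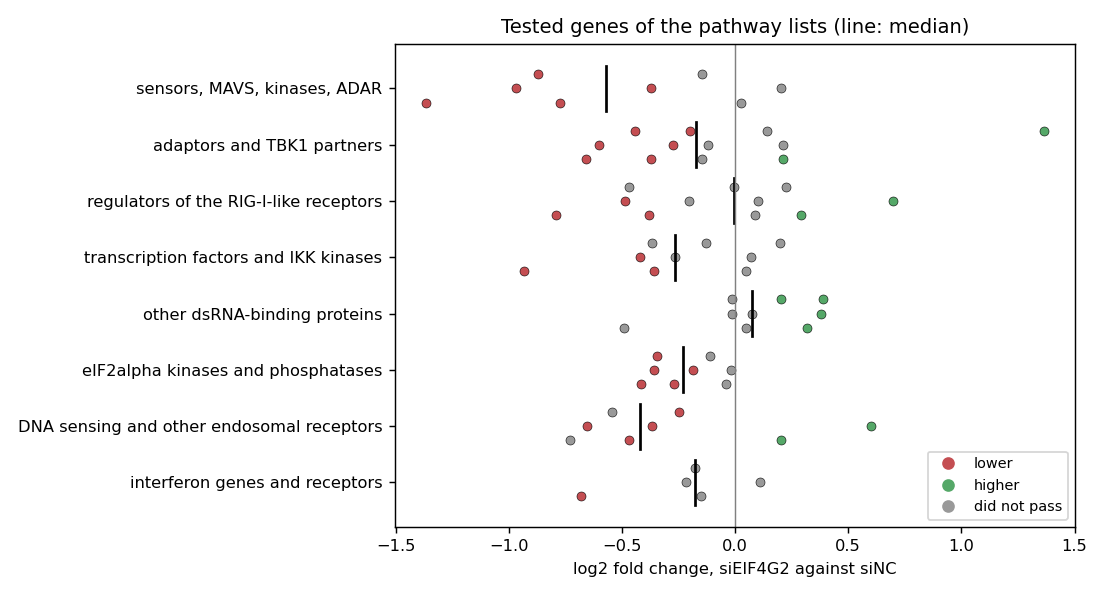
Log2 fold change of siEIF4G2 against siNC (horizontal axis) for the tested genes of each list (rows; members first), coloured by edgeR call, with the median as a line. At the filter of 0.5 FPKM shown here the members have the lowest median, -0.57. At a filter of 2 FPKM, which leaves out DHX58, the member median was -0.37. Medians of the other lists were not computed at that filter, so the ranking there was not examined. The list of other double-stranded RNA-binding proteins has its 4 called genes above 0.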

How the data were processed

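Messenger RNA of 6 libraries was sequenced, 3 per group. Per the submitters' processing notes, HISAT2 2.0 and StringTie 1.3.0 were among the tools; genome build, strand setting and filters: not given in the sources used here. Deposited by the authors was 1 table of 60612 genes with, per the file headers, a count and an FPKM value for each library. The deposited whole-number counts were treated as rounded estimated counts, since 21.1% of 109 low FPKM values came within 0.1 of a whole read when rescaled. Gene positions of all 9 genes overlap their GENCODE 29 intervals on GRCh38. Where rows shared a symbol, the one with the highest mean FPKM was kept. The 13748 genes that reached 0.5 FPKM in 3 or more libraries were tested with edgeR 4.0.16 (R 4.3.3), robust quasi-likelihood with TMM factors and no covariate, and p-values were Benjamini-Hochberg adjusted over all of them at 0.05. Standard errors came from the log2 fold change and its F statistic, and 95% intervals from the moderated degrees of freedom. The procedure was tested on simulated counts that varied less between libraries than these, whose common biological coefficient of variation was 19.4%. That test does not show how the procedure performs at the spread of these libraries. CPM used a pseudocount of 0.01 on the log2 scale for ratios and likeness. Exact permutation tests went through every split of the 6 libraries, and scipy 1.17.1 adjusted their p-values over the ratios. The genes and pathway lists were chosen with earlier results of these data known. Named list genes were the 3 with the smallest p per list, and the 2 nearest genes were named per member; others were chosen after their values were seen. Some items are not reported here. Alternatives were other scaling, DESeq2 1.42.0, limma 3.58.1 on log2 of the authors' FPKM plus 1 or 0.1, other filters, summed rows, a replicate block and leaving out each library. No protein sequences were used here.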

Additional observations from a re-analysis of the deposited data

How the results depend on the processing

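Over 15 alternatives no direction reversed. DDX58, IFIH1, EIF2AK2 and IKBKE passed in all 15 and DHX58 in the 14 that tested it. At a filter of 2 FPKM DHX58 was not tested, so 4 members were lower and the median log2 fold change of the 7 left was -0.37. Leaving out 1 library gave medians of -0.61 to -0.54 and 0 to 1 members called higher, the 1 being MAVS without siNC replicate 3. Genes called lower numbered 1782 to 2774 and higher 1559 to 2569, and library totals without TMM factors turned the split to 2218 lower and 2402 higher, as did limma, with 2208 and 2397 at a pseudocount of 1 FPKM and 2181 and 2385 at 0.1. With a pseudocount of 1 CPM the log2 ratio of DHX58 to IFIH1 differed by -0.39 (exact permutation p = 0.2). IL10RB also lost its call under limma, with adjusted p = 0.0625 and 0.0609 at pseudocounts of 1 and 0.1 FPKM. Same-numbered libraries of the groups did not deviate together (r of -0.03, 0.02 and 0.03 across genes), so the numbers were not taken as pairs. With the number as a replicate block, edgeR called 2008 genes lower and 1722 higher and the same count of 5 members lower. In that edgeR fit the adjusted p was 0.0535 for ADAR, 0.112 for IL10RB and 0.0536 for TRAF3. The block cannot change the 5 ratio differences, since each number has a library in both groups, so it is no check of them. They stayed at -0.40 for IKBKE to TBK1, -0.60 for DHX58 to IFIH1, -0.20 for DDX58 to IFIH1, -0.73 for EIF2AK2 to ADAR and -1.05 for IFIH1 to MAVS. With 3 libraries a group, the 95% interval of MAVS spans changes in either direction, and TLR3 rests on 163 to 351 counts per library.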
